A study of Homo sapiens with 38 samples.

Results

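Gradient pool 12 was compared with supermeres isolated by size-exclusion chromatography (FPLC) in 8 of the 38 small RNA libraries of the series, 4 libraries in each group. Both materials came from DiFi, an established human colorectal cancer line grown in a hollow-fibre bioreactor (3D culture), and the members were taken by the column names of the deposited count table: pool 12 A to D and FPLC supermere A to D. Medium was collected as 4 pools of about 400 mL, cleared by spinning and gravity filtration through 0.22 µm, and divided into 60 mL aliquots for each isolation method. For the gradient, an aliquot was spun, concentrated and floated from an iodixanol cushion, and the pool carries the fraction number 12. Light and heavy vesicles and a non-vesicular part are named as the products of the gradient, but nothing says which of them fraction 12 is, so it is called pool 12 here. The FPLC steps are not described in the sources used here. RNA of all 8 libraries was first incubated with AlkB, a demethylase, because methylated bases can block the copying of RNA into cDNA. Letters A to D are not tied to medium pools, and p-values speak only of how far libraries scatter, which may be technical. The main tests of single entries take that scatter from a fit of all 38 libraries, most of them outside this comparison. Tests of class shares rest on these 8 alone. The name of the deposited table carries a pair of codes that no label explains or ties to libraries. Whether a batch goes along with the isolation method therefore cannot be told.

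Supermeres are very small non-vesicular particles that remain in solution after vesicles and larger particles are pelleted, and they are known for their RNA and protein cargo. Cells release small RNAs both inside vesicles and in complexes with proteins. Y RNAs are short RNA polymerase III transcripts bound by the protein Ro60, vault RNAs belong to the large vault ribonucleoprotein, and microRNAs (miRNAs) guide Argonaute proteins to messenger RNAs through a seed at bases 2 to 8. Small nucleolar RNAs (snoRNAs) guide chemical modification of ribosomal RNA (rRNA), and small nuclear RNAs (snRNAs) build the spliceosomes.

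The sequences that the results turn on follow, 5′ to 3′, with GRCh38 coordinates. Mature miRNAs and tRNAs were read from the deposited table and longer RNAs from GENCODE v29 transcripts. The first set holds miRNA entries that the results describe by level, by share or by shared seed, with the seed in capitals. An entry with more than 1 locus is placed at the first one listed.
miR-1246 (chr2:176601024-176601042, minus strand): aATGGATTtttggagcagg
miR-1290 (chr1:18897078-18897096, minus strand): tGGATTTTtggatcaggga
miR-4497 (chr12:109833350-109833366, plus strand): cTCCGGGAcggctgggc
miR-200c-3p (chr12:6963742-6963764, plus strand): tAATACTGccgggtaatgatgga
miR-21-5p (chr17:59841273-59841294, plus strand): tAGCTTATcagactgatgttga
miR-92a-3p (chr13:91351361-91351382, plus strand): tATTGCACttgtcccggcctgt
miR-25-3p (chr7:100093571-100093592, minus strand): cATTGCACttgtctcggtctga
miR-29a-3p (chr7:130876748-130876769, minus strand): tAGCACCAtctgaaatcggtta
miR-29b-3p (chr1:207802450-207802472, minus strand): tAGCACCAtttgaaatcagtgtt
miR-29c-3p (chr1:207801865-207801886, minus strand): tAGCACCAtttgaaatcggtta
miR-320b (chr1:116671787-116671808, plus strand): aAAAGCTGggttgagagggcaa
miR-130b-3p (chr22:21653354-21653375, plus strand): cAGTGCAAtgatgaaagggcat
miR-99b-5p (chr19:51692618-51692639, plus strand): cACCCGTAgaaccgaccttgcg

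miR-1246 needs a second sequence beside it. All 19 of its bases are identical to bases 94 to 112 of U2 snRNA, whose main entry RNU2-1 is 191 bases long and is shown with that stretch in capitals. The same 19 bases occur in transcripts of 9 gene symbols of GENCODE v29, so a short read of U2 cannot be told apart from miR-1246.
RNU2-1 (chr17:43233787-43233977, minus strand): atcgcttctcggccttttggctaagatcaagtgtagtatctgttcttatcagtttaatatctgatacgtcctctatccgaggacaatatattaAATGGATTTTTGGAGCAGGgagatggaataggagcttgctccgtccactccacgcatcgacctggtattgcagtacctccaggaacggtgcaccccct

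The Y RNAs and vault RNAs are shown because they differed in opposite directions. RNY1 and RNY4 share their first 11 bases, and VTRNA1-1, VTRNA1-2 and VTRNA1-3 share their first 29, in capitals.
RNY1 (chr7:148987136-148987248, minus strand): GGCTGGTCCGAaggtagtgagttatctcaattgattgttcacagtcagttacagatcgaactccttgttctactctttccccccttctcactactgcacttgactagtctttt
RNY4 (chr7:148963315-148963410, plus strand): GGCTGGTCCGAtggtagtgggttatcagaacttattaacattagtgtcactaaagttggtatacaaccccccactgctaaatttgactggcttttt
VTRNA1-1 (chr5:140711275-140711373, plus strand): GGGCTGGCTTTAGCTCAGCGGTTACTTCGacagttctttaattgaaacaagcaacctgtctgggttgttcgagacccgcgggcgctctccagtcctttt
VTRNA1-3 (chr5:140726158-140726246, plus strand): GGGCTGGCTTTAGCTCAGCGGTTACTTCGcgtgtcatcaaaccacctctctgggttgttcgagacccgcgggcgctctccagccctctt

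Pool 12 held mainly rRNA and the miR-1246 entry, while FPLC supermere A to C held mainly rRNA and Y RNA and D mainly snRNA, Y RNA and miRNA. Total counts were 1024324, 1217586, 1780508 and 1985349 in pool 12 A to D, and 12958289, 5478630, 10868238 and 1478602 in FPLC supermere A to D. At this depth the widest 95% Wilson interval of a class share reached 0.0961 percentage points to either side, and this covers counting error only. The libraries of a group therefore differed from each other far beyond counting error. FPLC supermere D stood apart, with 7.67% of its counts in rRNA against 64.0% to 90.6% in the other 3, and several results below are given without it as well.

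miRNA made up 42.4%, 29.1%, 27.3% and 49.3% of all counts in pool 12 A to D, and 0.90%, 3.89%, 3.82% and 22.8% in FPLC supermere A to D. Every pool 12 library was above every FPLC library, and the means were 37.0% ± 10.6 and 7.85% ± 10.1 (SD, n = 4 each). Without FPLC library D the FPLC mean was 2.87%. Y RNA went the other way, at 0.337%, 0.210%, 0.238% and 0.379% in pool 12 and 8.14%, 29.4%, 26.6% and 28.9% in the FPLC supermere. Its mean share was 80.0-fold higher in the FPLC supermere (23.3% ± 10.2 against 0.291% ± 0.080). Miscellaneous RNA, the class that holds vault and 7SL RNAs, was 13.6-fold higher in pool 12 (0.772% ± 0.369 against 0.0566% ± 0.0329), and mitochondrial tRNA was 8.95-fold higher in the FPLC supermere (0.00791% against 0.000883%). In these 4 classes the groups did not overlap.

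The other classes overlapped. rRNA took 43.8%, 63.6%, 66.7% and 41.1% of pool 12 and 90.6%, 64.0%, 65.0% and 7.67% of the FPLC supermere. snRNA ranged from 4.02% to 10.7% in pool 12 and from 0.162% to 39.3% in the FPLC supermere, where library D was highest. The snRNA means were 6.88% and 11.4%, and without FPLC library D the direction turned, to 6.88% and 2.07% (exact permutation p = 0.0571, adjusted 0.0952). snoRNA averaged 0.489% in pool 12 and 0.241% in the FPLC supermere, nuclear tRNA 0.502% and 0.248%, long noncoding RNA (lncRNA) 0.186% and 0.0912%, and endogenous retrovirus entries (ERV) 0.0498% and 0.0419%. A two-sided exact permutation test over the 70 ways to divide 8 libraries cannot go below p = 0.0286. Each of the 4 classes without overlap had that p, which became 0.0714 after Benjamini-Hochberg adjustment over the 10 classes. By this test 0 of 10 classes passed (0%), with 4 at an unadjusted p below 0.05.

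**Figure D1:**
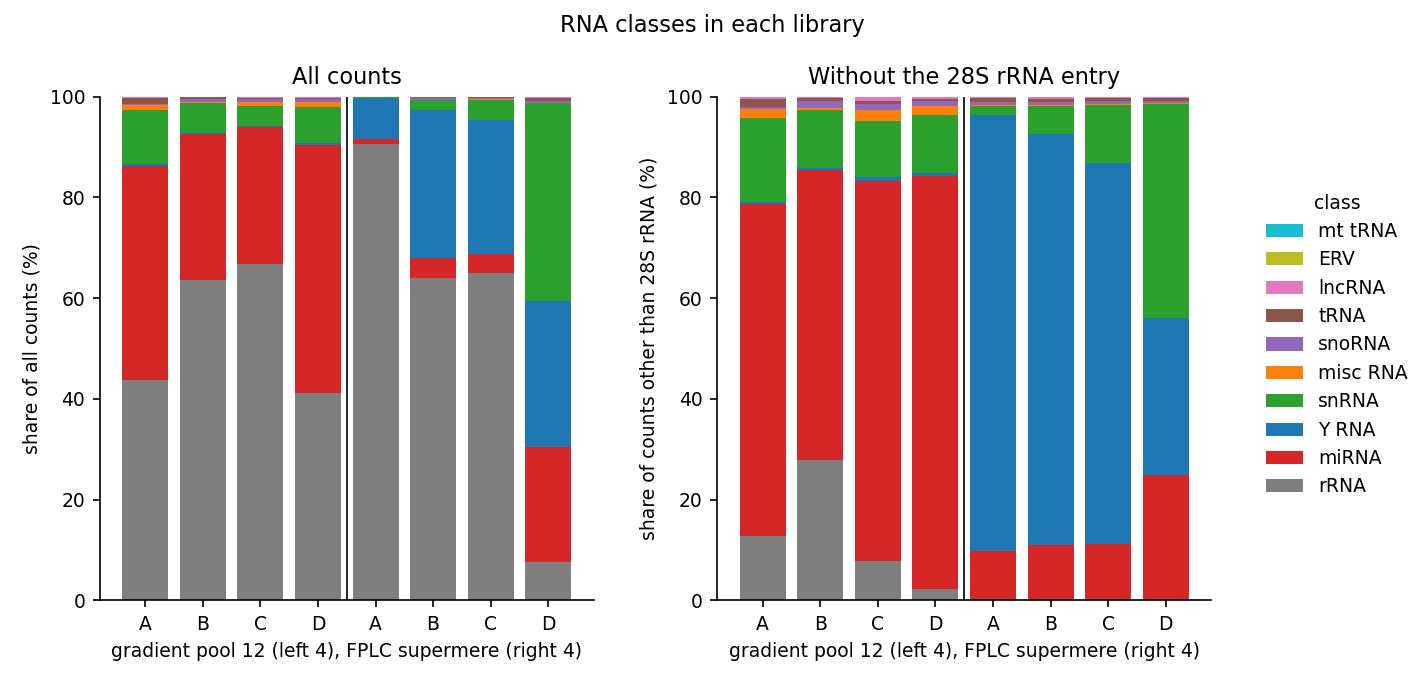
Stacked bars give each RNA class as a percent of all counts (left) and of counts other than the 28S rRNA entry (right), with 1 bar per library. Without 28S, pool 12 is mostly miRNA (57.6% to 81.9%), and FPLC supermere A to C are mostly Y RNA (75.8% to 86.6%), while library D holds 31.3% Y RNA and 42.5% snRNA.

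Taking the 28S entry out left 613852 to 1195661 counts per pool 12 library and 1217859 to 3814604 per FPLC library. miRNA was then 65.9%, 57.6%, 75.5% and 81.9% of pool 12 and 9.59%, 10.8%, 10.9% and 24.7% of the FPLC supermere. Y RNA was 0.524%, 0.416%, 0.659% and 0.629% against 86.6%, 81.5%, 75.8% and 31.3%, a 124-fold higher mean in the FPLC supermere. rRNA other than 28S separated as well, with 12.8%, 27.8%, 7.82% and 2.24% in pool 12 and only 0.227%, 0.242%, 0.220% and 0.199% in the FPLC supermere, which is 57.1-fold. Each pool 12 library was thus above each FPLC library in rRNA other than 28S, while rRNA with 28S overlapped. With 28S out, 5 classes did not overlap (miRNA, Y RNA, rRNA, miscellaneous RNA and mitochondrial tRNA), each with an exact permutation p of 0.0286 and an adjusted p of 0.0571, so again 0 of 10 classes passed (0%), with 5 below 0.05 unadjusted. snRNA averaged 12.7% and 15.3%, snoRNA 0.985% and 0.624%, and nuclear tRNA 0.904% and 0.585%, all with overlap. Without FPLC library D the snRNA mean of the FPLC supermere was 6.26%, below that of pool 12 (exact permutation p = 0.0571, adjusted 0.0952).

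Single entries were tested with edgeR's quasi-likelihood test over 7009 features, with all 38 libraries in the fit, and an entry passed at a Benjamini-Hochberg adjusted p below 0.05. Log2 fold changes are pool 12 over FPLC supermere and rest on TMM scaling factors, while CPM values are counts over the library total on the usual scale of that unit, so the fold change and the ratio of CPM of an entry can differ. By this test 317 of the 7009 passed (4.52%), with 2.03% of them all higher in pool 12 and 2.5% lower. Only 4940 of the tested features had a count in these 8 libraries, of which 6.42% passed (2.87% higher and 3.54% lower). With library totals in place of TMM 300 passed (4.28%), 2.74% higher and 1.54% lower, so the higher share of calls went from 44.8% to 64%. Changing the scaling moved the median log2 fold change of the features with counts from −0.42 to 0.18, a shift of 0.60, against which the fold changes below should be read. Single entries moved further, such as SNHG1 from 4.53 to 6.50. TMM factors ran from 0.0553 in FPLC supermere A to 0.527 in D, and from 0.369 to 0.569 in pool 12. CPM ranges did not overlap between the groups for 449 of the 4940 (9.09%).

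The calls were unevenly spread over the classes. Each count of calls in level, here and below, is to be read beside 2.03% higher and 2.5% lower over all features tested. In the snoRNA class 62 of 265 tested entries were higher in pool 12 and 4 lower, and the median over those with counts was 3.58 on the log2 scale, beside −0.42 over all features. The snRNA class had 32 higher and 5 lower of 274. In the Y RNA class 2 were higher and 74 lower of 277 (median −1.07), and among miRNAs 11 were higher and 68 lower of 505 (median −2.14). With library totals the balance moved, to 23 higher and 38 lower miRNAs (median −1.08) and to 3 higher and 48 lower Y RNAs (median −0.188), while snoRNA had 74 higher and 2 lower. Miscellaneous RNA had 12 in each direction of 102, rRNA 3 higher and 2 lower of 17, nuclear tRNA 4 and 2 of 49, mitochondrial tRNA 0 and 4 of 21, lncRNA 16 and 3 of 4756, and ERV 0 and 1 of 743.

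**Figure D2:**
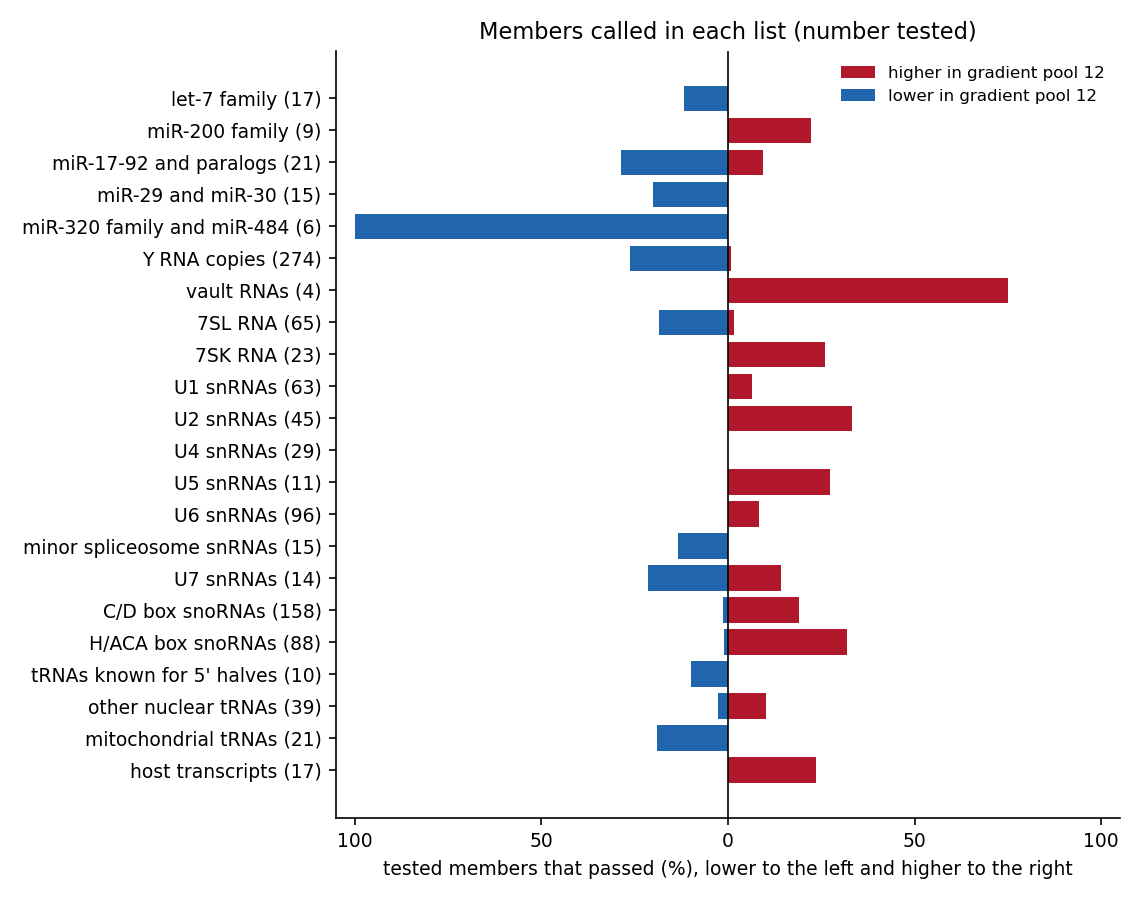
Bars give the percent of tested members of each feature list that passed the edgeR test, to the right when higher and to the left when lower in pool 12, with the number tested in brackets. All 6 members of the miR-320 and miR-484 list passed as lower and 3 of 4 vault RNAs as higher, beside 2.5% and 2.03% of all features.

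miR-1246 dominated the miRNA class of pool 12. It was at 409154, 286320, 265260 and 481113 CPM in pool 12 A to D, and at 515, 3069, 7164 and 153464 CPM in FPLC supermere A to D. The groups did not overlap, but FPLC library D lay far above the other 3. The log2 fold change was 3.28 ± 1.21 (SE) with an adjusted p of 0.169, and without FPLC library D it was 5.44 with an adjusted p of 1.44e-06. In the 8 libraries alone it was 3.49 with 0.00804, and DESeq2 gave 3.33 with 0.000295, so the call for miR-1246 depended on the fit. Of miRNA counts it took 96.5%, 98.6%, 97.3% and 97.5% in pool 12, and 5.71%, 7.89%, 18.8% and 67.3% in the FPLC supermere. RNU2-1, the U2 snRNA entry that contains the miR-1246 sequence printed above, was at 6025, 7618, 9317 and 15979 CPM in pool 12 and 311, 4081, 1738 and 11759 in the FPLC supermere, with overlap (log2 fold change 0.70 ± 0.65, adjusted p = 0.686). Its part in the miR-1246 counts was not tested.

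All other miRNAs together were a small part of pool 12. They made up 1.501%, 0.414%, 0.737% and 1.22% of all counts in pool 12 and 0.850%, 3.59%, 3.10% and 7.45% in the FPLC supermere, with overlap. As a percent of counts other than 28S, the values were 2.33, 0.821, 2.04 and 2.03 in pool 12 and 9.04, 9.93, 8.84 and 8.06 in the FPLC supermere. The groups then stood apart, at 1.81% ± 0.67 and 8.97% ± 0.77, and FPLC library D fell among its own group. Between 190 and 281 miRNA entries had a count in a pool 12 library and between 311 and 364 in an FPLC library.

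miR-92a-3p, a member of the growth-promoting miR-17-92 cluster, was the most abundant miRNA of FPLC supermere A to C. It was at 1737, 231, 598 and 965 CPM in pool 12 and 2379, 10832, 10910 and 20528 CPM in the FPLC supermere (log2 fold change −4.47 ± 0.75, adjusted p = 3.66e-07). The lowest FPLC library lay above the highest pool 12 library. The list of miR-17-92 and its paralogs went both ways, with 2 higher and 6 lower of 21. Over all features 2.03% were higher and 2.5% lower. The median of the list members with counts was 0.126. With library totals 4 were higher and 3 lower (median 1.48). miR-130b-3p was at 36.1, 13.96, 23.6 and 46.3 CPM against 137, 379, 551 and 3415 (−5.53 ± 0.86, adjusted p = 2.45e-08). miR-99b-5p, of the miR-99 and miR-100 family, had 4 counts in all of pool 12 and 1064 in the FPLC supermere, where it was at 12.4, 36.9, 44.9 and 144.1 CPM (−7.24 ± 1.13, adjusted p = 3.22e-08). In both, each FPLC library was above each pool 12 library.

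miRNAs that share a seed passed together in several families. Of the 68 lower miRNAs, 16 fell into 6 seed groups with at least 2 lower members. In the class as a whole 68 of 505 tested miRNAs were lower (median −2.14 over those with counts), beside 2.5% of all features. Whether lower miRNAs share seeds more often than that allows was not tested. How reads that match several members of a family were counted is not given, so members may not be separate measurements. The seed AAAGCTG of the miR-320 family, miRNAs made without Drosha, held 4 lower of 5 tested (median −3.55), and miR-320b was at 242, 77.9, 118 and 185 CPM against 329, 1137, 946 and 3398 (−3.93 ± 0.77, adjusted p = 2.12e-05). All 3 miR-29 members, with the seed AGCACCA, were lower: miR-29a-3p at −3.28 ± 0.74, miR-29b-3p at −3.90 ± 0.80 and miR-29c-3p at −3.89 ± 0.82. Under the seed ATTGCAC 3 of 4 were lower, among them miR-92a-3p and miR-25-3p (−4.20 ± 0.82, adjusted p = 2.12e-05). miR-29b-3p was at 193.6, 67.4, 62.7 and 167.6 CPM in pool 12 and 211.7, 1134, 847.6 and 2056 in the FPLC supermere. miR-29c-3p was at 98.3, 34.5, 31.1 and 83.0 CPM against 105.8, 567.3, 425.7 and 1030.7, in nearly the same proportion to miR-29b-3p in every library. Their sequences begin alike, so the 2 entries may hold the same reads and are not separate measurements. Their loci on chromosome 1 also lie close to each other.

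Calls in other miRNA lists are to be read beside 2.03% higher and 2.5% lower over all features. The list of miR-10, miR-99, miR-100 and miR-125 had 0 higher and 3 lower of 13 (0 and 2 with library totals). The miR-200 family had 2 higher and 0 lower of 9 (4 and 0 with library totals). In the let-7 family, which restrains growth, 0 of 17 were higher and 2 lower. Scaling by library totals left 0 let-7 calls. let-7g-5p (−2.31 ± 0.71, adjusted p = 0.0275) had −1.73 with 0.104 by library totals and also lost its call when any of FPLC libraries C and D or pool 12 libraries A, B and C was left out, with adjusted p from 0.0664 to 0.146. let-7a-5p was at 82.4, 40.2, 85.8 and 163 CPM against 13, 40.2, 88.3 and 231, with overlap. miR-10a-5p had a log2 fold change of −2.52 ± 0.71 and an adjusted p of 0.0116, which became 0.0934 without pool 12 B and 0.0809 without pool 12 C. miR-21-5p, a miRNA commonly raised in colorectal cancer, was at 1160, 271, 413 and 970 CPM against 124.9, 483.5, 415 and 1085 (−0.36 ± 0.64, adjusted p = 1). The groups overlapped in each of these entries.

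The 11 miRNAs that were higher in pool 12 included miR-200c-3p, miR-1290 and miR-4497. Like miR-1246, miR-1290 and miR-4497 were listed among miRNA entries that overlap other structured RNAs. Whether their reads came from such RNAs was not tested. miR-200c-3p, which keeps cells epithelial, was at 172, 32.9, 96.6 and 207 CPM against 2.55, 17.3, 14.3 and 33.1, so that pool 12 B fell within the FPLC range. Its log2 fold change was 2.24 ± 0.72 (adjusted p = 0.0403), and the call was lost on leaving out any library other than pool 12 B or C, with adjusted p from 0.0694 to 0.248. miR-192-5p, a miRNA of intestinal epithelium, was at 448, 172, 387 and 571 CPM against 14.6, 57.0, 56.2 and 78.1, with no overlap, and had 1.97 ± 0.69 with an adjusted p of 0.0823, or 2.94 with 0.000304 by library totals. miR-1290 passed at 3.66 ± 0.95 (adjusted p = 0.00377), with 102.5, 37.8, 28.1 and 43.3 CPM against 0.309, 3.29, 1.29 and 5.41. miR-4497 had 1026 counts in pool 12 (236, 132, 213 and 123 CPM) and 3 in all of the FPLC supermere, a ratio of 1752.4 per library total with a counting interval from 598 to 8511.6.

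**Figure D3:**
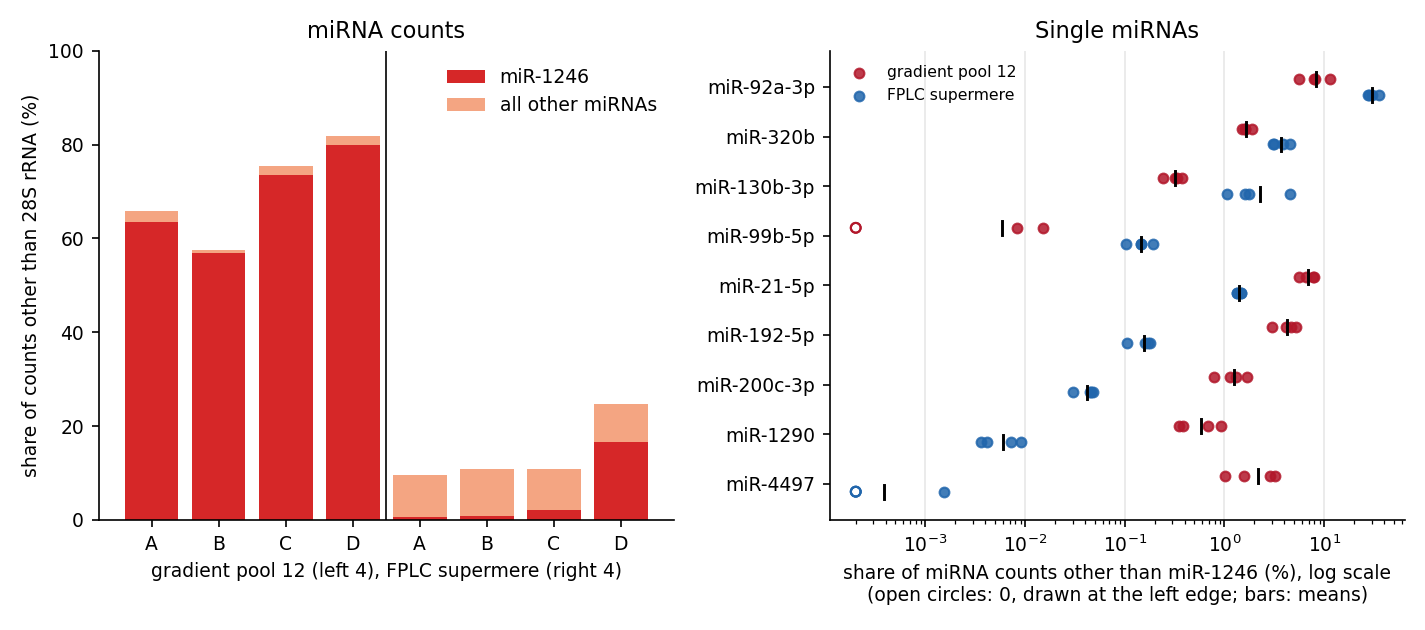
Left, miR-1246 and all other miRNAs as a percent of counts other than 28S rRNA, with 1 bar per library. Right, 9 miRNAs as a percent of miRNA counts other than miR-1246 on a log axis, with 1 point per library and bars at the means of 4. For 4 of them every FPLC library is above every pool 12 library, and for 5 the reverse holds.

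Because miR-1246 filled the miRNA class of pool 12, the share of an entry within its class depends on whether miR-1246 is in the total. A second edgeR fit used the class total of each library as the offset, so that a fold change is a ratio of shares within the class. In it 439 of the 7009 features passed (6.26%), 219 higher (3.12%) and 220 lower (3.14%), and of the 4940 features with counts 8.89% passed (4.43% higher and 4.45% lower). Shares within the class did not overlap between the groups for 550 of the 4940 (11.1%). Among the 505 miRNAs tested, the second fit called 3 higher and 172 lower, with miR-1246 in the total. A separate fit took the largest entry of each class out of the total. It called 91 miRNAs higher and 10 lower, beside 271 higher and 68 lower of all 7009 features. Within miRNAs other than miR-1246, miR-21-5p made up 7.73%, 6.55%, 5.61% and 7.92% of pool 12 and 1.47%, 1.35%, 1.34% and 1.46% of the FPLC supermere (log2 fold change 2.31 ± 0.33, adjusted p = 5.08e-09). miR-192-5p made up 4.26% ± 0.97 against 0.154% ± 0.034 (4.79 ± 0.43, adjusted p = 9.4e-19) and miR-200c-3p 1.24% ± 0.37 against 0.0422% ± 0.0083 (4.87 ± 0.46, adjusted p = 1.64e-17). These 3 miRNAs were thus a larger part of the remaining miRNAs in every pool 12 library.

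miR-92a-3p was the counterpart. It made up 11.6%, 5.57%, 8.12% and 7.88% of miRNAs other than miR-1246 in pool 12 and 27.99%, 30.2%, 35.2% and 27.5% in the FPLC supermere (−1.87 ± 0.38, adjusted p = 6.68e-05). miR-130b-3p averaged 0.319% and 2.26% (−2.82 ± 0.47, adjusted p = 6.33e-07). miR-29a-3p, at 3.30% ± 1.07 and 4.49% ± 0.82, and miR-320b, at 1.65% ± 0.16 and 3.66% ± 0.70, were lower in level but did not pass on this scale (adjusted p = 0.663 and 0.0618).

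The abundant Y RNAs were lower in pool 12. RNY1 was at 102, 46.2, 160 and 291 CPM in pool 12 A to D and at 24155, 101356, 140778 and 105056 CPM in FPLC supermere A to D. Its log2 fold change was −10.26 ± 0.91 (adjusted p = 2.48e-25), and the lowest FPLC library was far above the highest pool 12 library. RNY4 was at 167, 83.9, 150 and 264 CPM against 11151, 37536, 23817 and 35275 (−8.48 ± 0.88, adjusted p = 5.32e-19). Its copies RNY4P10 and RNY4P7 carried nearly the same counts as RNY4, and they share 88 and 89 of 96 bases with it, so their reads cannot be assigned to 1 of them.

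The make-up of the Y RNA class differed as well. RNY1 alone held 3.04%, 2.21%, 6.71% and 7.69% of Y RNA counts in pool 12 and 29.7%, 34.45%, 52.9% and 36.3% in the FPLC supermere, with no overlap. In pool 12 it took 10 to 14 entries to reach 50% of the class, and in the FPLC supermere 1 to 3. By share within the class, 94 entries were higher and 4 lower of 277, although 74 were lower in level. Of the 3 parent Y RNAs, 0 were higher and 2 lower in level, and 1 was higher and 1 lower within the class. RNY1 was lower also within the class (−2.96 ± 0.41, adjusted p = 4.03e-10), and RNY4 had −1.09 ± 0.40 with an adjusted p of 0.09. RNY4 passed in the 8 libraries alone (adjusted p = 0.0343), with a replicate block (0.0455), with a minimum count of 30 (0.0274) and with the largest entry of the class out of the total (−1.71, 4.79e-05). The copy Y_RNA ENSG00000199584 was at 64.4, 44.4, 47.7 and 134 CPM against 1.91, 12.4, 8.55 and 18.2, higher in every pool 12 library, and the copy Y_RNA ENSG00000201343 had 0 counts in pool 12 and 37.5, 154, 269 and 317 CPM in the FPLC supermere, at least 389-fold higher when 3 counts over the group are allowed for.

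**Figure D4:**
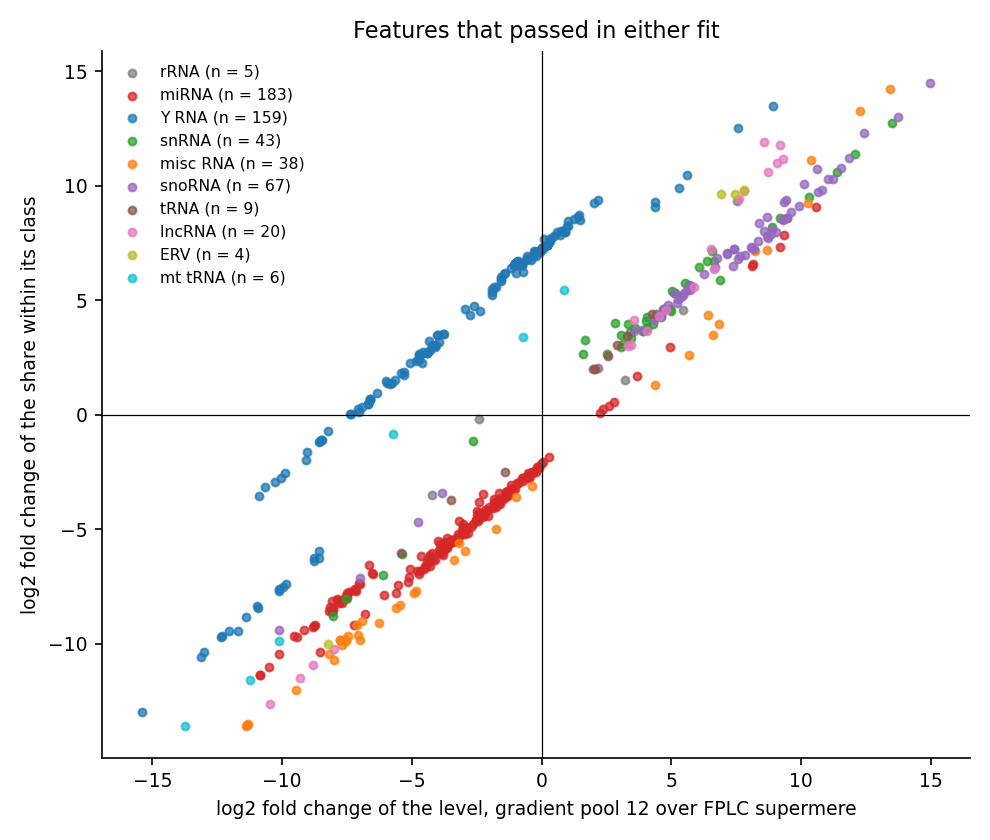
Each point is a feature that passed in either edgeR fit, with its log2 fold change of level on the x axis and of share within its class on the y axis, coloured by class. In every Y RNA entry the change of share lies above the change of level, in most miRNA entries it lies below, and 9 features were called lower in level but higher within their class. Values of features with 0 counts in a group have no firm size.

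Vault RNAs made up 88.9%, 39.0%, 87.5% and 93.4% of the miscellaneous class in pool 12 A to D and 19.3% to 34.0% in the FPLC supermere. Summed, they reached 9373, 967, 6858 and 9356 CPM in pool 12 and 38.5, 213.6, 178.5 and 174.4 in the FPLC supermere, and 3 of 4 tested passed as higher (4 of 4 with library totals). VTRNA1-1 was at 5204, 627, 5054 and 6922 CPM against 28.4, 153, 128 and 138 (4.35 ± 0.81, adjusted p = 1.25e-05). Pool 12 B was the lowest of its group in each vault RNA named here, and still above every FPLC library. VTRNA1-3, shown above with the shared first 29 bases, was at 2198, 95.3, 347 and 385 CPM against 0.911, 6.63, 2.35 and 6.43 (6.6 ± 0.94, adjusted p = 6.01e-10), and VTRNA3-1P had 6.83 ± 0.94. VTRNA1-2, at 934, 119, 637 and 1336 CPM against 8.78, 49.5, 43.1 and 28.6, did not overlap between the groups, with 3.49 ± 1.27 and an adjusted p of 0.156. VTRNA1-2 passed with library totals (4.54, adjusted p = 0.0235), in the 8 libraries alone (3.28, 0.000355), with a replicate block there (3.20, 0.000986) and with DESeq2 (3.29e-07), but not with a replicate block in the fit of all libraries (2.77, 0.408).

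7SL RNA, the RNA of the signal recognition particle that directs proteins to the endoplasmic reticulum, gave 1 higher and 12 lower of 65. Over all features 2.03% were higher and 2.5% lower. RN7SL1 was at 1.27, 0.411, 2.30 and 0.856 CPM in pool 12 and 4.79, 15.4, 24.6 and 13.1 in the FPLC supermere (−4.86 ± 1.01, adjusted p = 9.41e-05). RN7SL2 (−2.95 ± 0.87, adjusted p = 0.0169) lost its call without FPLC library C or without any of pool 12 B, C and D (adjusted p from 0.0689 to 0.14) and with library totals (0.267). 7SK RNA, which restrains the elongation factor P-TEFb, gave 6 higher and 0 lower of 23, but its parent RN7SK overlapped, at 839, 425, 1165 and 664 CPM against 42.1, 465, 316 and 1123 (0.10 ± 0.73, adjusted p = 1), as did the copy RN7SKP160. Copies of 7SL and 7SK resemble their parents, and single copies are uncertain.

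The rRNA class was 28S in both groups, with more 18S in pool 12. 28S was at 355972, 495845, 638747 and 397758 CPM in pool 12 and 906017, 639005, 649014 and 74876 in the FPLC supermere, with overlap. The log2 fold change of 28S was −2.41 ± 0.62 with an adjusted p of 0.00368 under TMM but −0.26 with an adjusted p of 1 under library totals, −1.02 with 0.524 without FPLC library A, and −2.31 with 0.108 without pool 12 B, so it depended on scaling and on single libraries. 18S was at 80132, 136004, 25681 and 12021 CPM in pool 12 and at 159, 693, 621 and 1338 in the FPLC supermere (5.45 ± 0.79, adjusted p = 1.02e-09). Pool 12 A and B were above C and D, and all 4 were above the FPLC libraries. There were 4.44, 3.65, 24.9 and 33.1 counts of 28S per count of 18S in pool 12, and 5694, 922, 1046 and 55.9 in the FPLC supermere, also without overlap.

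Among the small rRNAs 2 5.8S entries were higher in pool 12 in level. The 5.8S entry ENSG00000277739 was at 1231, 2537, 1354 and 943 CPM against 21.01, 63.9, 33.9 and 294 (3.20 ± 0.75, adjusted p = 0.00075). The 5.8S copy ENSG00000283568 was at 357, 1200, 78.2 and 41.0 CPM against 0.587, 1.10, 0.0920 and 0.406 (7.54 ± 1.08, adjusted p = 6.98e-10). Of the 13 5S and 5.8S entries tested, these 2 were higher and 0 lower. RNA5S1, the 5S entry, was at 457, 313, 1002 and 398 CPM against 23.1, 85.9, 84.2 and 144.3, higher in every pool 12 library but with an adjusted p of 0.203 under TMM and 0.0029 under library totals. Within rRNA, where 28S fills the total, 18S was higher (4.57 ± 1.02, adjusted p = 0.00309), and with 28S taken out of the total it did not pass (0.28 ± 0.35, adjusted p = 0.862), although it then made up 89.1% to 97.4% of the class in pool 12 and 72.8% to 80.6% in the FPLC supermere. On that scale 0 of 17 rRNA entries were higher and 7 lower, with RNA5S1 at −2.44 ± 0.47 (adjusted p = 2.01e-05) and 5.8S ENSG00000277739 at −1.31 ± 0.43 (0.0555).

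snRNAs of the minor spliceosome, which removes a rare type of intron, showed 2 patterns. RNU11 was at 21.5, 9.03, 43.8 and 30.2 CPM in pool 12 and 436, 3328, 1966 and 7083 in the FPLC supermere (−7.56 ± 1.75, adjusted p = 0.00599), with each FPLC library above each pool 12 library. RNU12, its partner in the particle, was at 87407, 35524, 13479 and 28063 CPM against 211, 5565, 32119 and 352024, with the full pool 12 range inside that of the FPLC supermere (−1.17 ± 1.03, adjusted p = 0.645). RNU12 alone was 33.5% to 81.6% of snRNA counts in pool 12 and 12.99% to 89.6% in the FPLC supermere. Of 15 minor spliceosome entries tested 0 were higher and 2 lower.

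In the other spliceosomal lists 15 of 45 U2 entries, 4 of 63 U1, 3 of 11 U5, 8 of 96 U6 and 0 of 29 U4 entries were higher in pool 12, with 0 lower in each. Over all features 2.03% were higher and 2.5% lower, and over those with counts 2.87% and 3.54%. How reads that match several copies of a snRNA or Y RNA were counted is not given in the sources used here, so the calls of copies are not separate measurements. The most abundant entries overlapped. RNU1-1 was at 250, 307, 561 and 674 CPM against 36.1, 232, 230 and 358 (0.24 ± 0.70, adjusted p = 1), RNU5E-1 had 1.68 ± 0.73 (adjusted p = 0.247, 0.0477 with library totals) and RNU4-2 had −1.09 ± 0.86 (adjusted p = 0.596). RNU5B-1 had 222.9, 242, 258 and 297 CPM against 1.51, 13.01, 10.98 and 337, so FPLC library D alone made the overlap (1.60 ± 0.78, adjusted p = 0.341, and 3.60 with 0.00549 without that library). The calls lay among copies such as RNU2-51P, at 256, 399, 44.3 and 18.1 CPM against 0.100, 0.292, 1.98 and 0.271 (6.64 ± 1.07, adjusted p = 1.04e-07). RNU6-1318P was at 168, 185, 52.0 and 17.2 CPM in pool 12 with 0 counts in the FPLC supermere, at least 1083.8-fold higher against 3 counts over the group.

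U7 snRNA, which processes the 3′ ends of histone messengers, gave calls in both directions, 2 higher and 3 lower of 14. Over all features 2.03% were higher and 2.5% lower. RNU7-1 was at 0.0976, 0.0821, 0.562 and 3.53 CPM in pool 12 and 9.31, 54.8, 46.6 and 76.2 in the FPLC supermere (−6.13 ± 0.96, adjusted p = 3.29e-08). RNU7-19P, a copy, was at 0.0976 to 0.562 CPM against 9.15 to 75.5 CPM (−8.04 ± 1.14, adjusted p = 4e-10). Its FPLC values lay close to those of RNU7-1 in each library.

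snoRNAs were the class with most calls in favour of pool 12, and the sequences of 4 of them show the features by which their families are known. C/D box snoRNAs guide ribose methylation and carry a C box (TGATGA) near the 5′ end and a D box (CTGA) near the 3′ end, in capitals below. H/ACA box snoRNAs guide pseudouridylation and end in ACA followed by 3 bases, in capitals in SNORA8. Searched on the transcript strand only, TGATGA within the first 30 and CTGA within the last 15 bases both occurred in 149 C/D entries (67.4% of those with a transcript) and in 0 H/ACA entries, and ACA at 3 bases from the end occurred in 94 H/ACA entries (75.2%) and in 3 C/D entries (1.36%).
SNORD14A (chr11:17074654-17074744, minus strand): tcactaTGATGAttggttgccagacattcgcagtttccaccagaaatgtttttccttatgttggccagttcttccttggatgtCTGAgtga
SNORD33 (chr19:49490615-49490699, plus strand): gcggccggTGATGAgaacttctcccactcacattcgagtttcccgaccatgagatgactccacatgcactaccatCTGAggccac
SNORD123 (chr5:9548836-9548905, plus strand): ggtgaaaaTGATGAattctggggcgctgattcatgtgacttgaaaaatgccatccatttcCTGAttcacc
SNORA8 (chr11:93732361-93732499, minus strand): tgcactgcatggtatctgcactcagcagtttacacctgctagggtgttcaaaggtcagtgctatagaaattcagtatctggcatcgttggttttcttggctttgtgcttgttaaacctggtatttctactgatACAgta

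Of the C/D box list 30 of 158 tested entries were higher in pool 12 and 2 lower, and the median of those with counts was 2.66. SNORD10 was at 327, 728, 80.3 and 85.1 CPM in pool 12 with 0 counts in all 4 FPLC libraries, at least 3130.1-fold higher against 3 counts over the group. SNORD14A was at 224, 1201, 121 and 87.8 CPM in pool 12 and had 6 counts in the FPLC supermere (9.41 ± 1.20, adjusted p = 3.07e-12). The U3 copy ENSG00000212551, of the snoRNA that helps cut the rRNA precursor, was at 141.7, 590, 49.6 and 30.2 CPM against 0.100, 0.0548, 0.00920 and 0.0676, which is under 3 counts in the FPLC supermere. In these 3 entries pool 12 A and B were above C and D, as they were for 18S rRNA. SNORD33 was the most abundant snoRNA of both groups, at 507, 2080, 1028 and 2583 CPM against 570, 1546, 1269 and 2671, with no difference beyond the spread (−1.04 ± 0.70, adjusted p = 0.536), and it held 29.4% ± 10.8 of snoRNA counts in pool 12 and 66.5% ± 9.5 in the FPLC supermere.

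A few snoRNAs went the other way. SNORD123 was at 2.93, 2.46, 3.93 and 3.02 CPM in pool 12 and 32.6, 85.2, 222.3 and 843 in the FPLC supermere (−6.99 ± 1.01, adjusted p = 1.17e-09). The unnamed snoRNA ENSG00000273885 was at 17.6, 18.9, 15.2 and 38.8 CPM against 49.9, 626, 219 and 344 (−4.75 ± 0.85, adjusted p = 2.34e-06). Both were lower also within the class (−7.14 ± 0.84 and −4.71 ± 0.70), as 4 of 265 were in all.

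In the H/ACA box list 28 of 88 were higher and 1 lower, and the median was 5.16. Summed, the list reached 538, 629, 1821 and 1687 CPM in pool 12 and 15.1, 57.5, 45.8 and 189 in the FPLC supermere, so every pool 12 library was above every FPLC library, with C and D above A and B. SNORA71A was at 60.5, 57.5, 338 and 353 CPM in pool 12 and had 5 counts in the FPLC supermere (8.67 ± 1.17, adjusted p = 5.49e-11). SNORA21 was at 41.0, 50.9, 220 and 170 CPM against 0.772, 0.730, 1.20 and 0 (5.66 ± 0.95, adjusted p = 3.73e-07). Pool 12 C and D were thus above A and B in these entries, while SNORD10 and SNORD14A had A and B above C and D and the C/D list as a whole, at 1923, 5549, 2607 and 4030 CPM, had neither order. SNORA8 was at 86.2, 85.8, 127 and 141.9 CPM with 700 counts in pool 12 against 1 in the FPLC supermere, a ratio of 3586.8 with a counting interval from 641.7 to 141870.7, and SNORA14B had 869 against 2 counts (2226.4, interval from 614.5 to 18413.1). A pool 12 library detected 181 to 255 snoRNA entries and an FPLC library 91 to 131, although the FPLC libraries A to C were deeper.

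**Figure D5:**
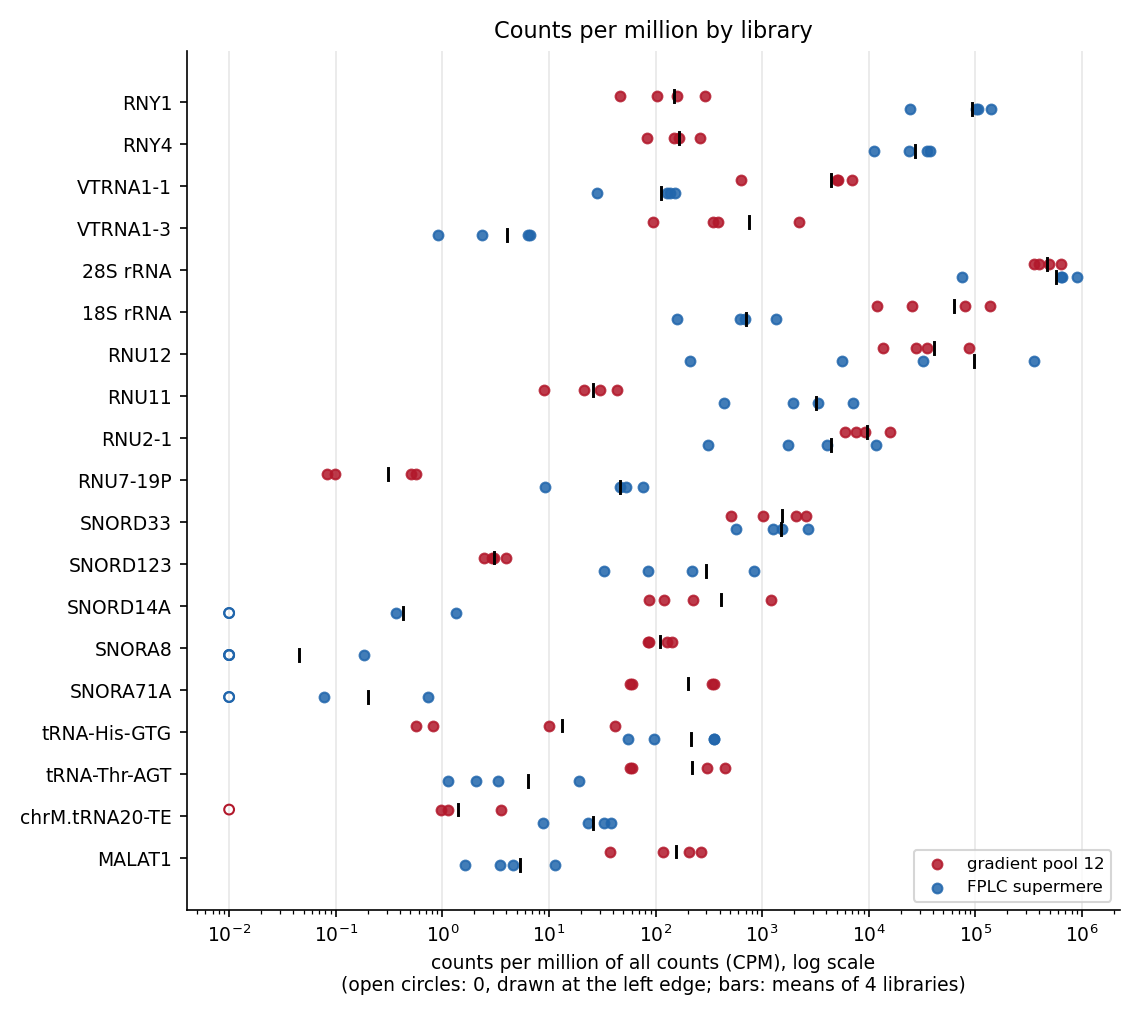
CPM (log axis) for 19 features, with 1 point per library, open circles at 0 and bars at the means of 4. RNY1, RNY4, RNU11, RNU7-19P, SNORD123, tRNA-His-GTG and chrM.tRNA20-TE lie higher in every FPLC library, the vault, 18S, SNORD14A, SNORA, tRNA-Thr-AGT and MALAT1 values in every pool 12 library, and the other 4 overlap.

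Nuclear tRNAs differed by isoacceptor rather than as a class, with 4 higher and 2 lower of 49, beside 2.03% and 2.5% of all features. The anticodons of a lower and a higher tRNA, at bases 34 and 35 onward, are in capitals.
tRNA-His-GTG (chr1:146038044-146038115, plus strand): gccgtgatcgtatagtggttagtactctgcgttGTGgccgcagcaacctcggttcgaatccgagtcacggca
tRNA-Thr-AGT (chr17:8187160-8187233, plus strand): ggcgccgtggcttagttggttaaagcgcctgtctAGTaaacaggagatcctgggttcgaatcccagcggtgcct

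tRNA-His-GTG, a tRNA whose 5′ fragments are often found outside cells, was at 41.3, 0.821, 0.562 and 10.1 CPM in pool 12 and 97.7, 354, 356 and 54.8 in the FPLC supermere (−5.43 ± 0.88, adjusted p = 1.19e-07). Of tRNA counts it took 0.0217% to 0.383% in pool 12 and 16.7%, 16.7%, 18.2% and 1.04% in FPLC supermere A to D. The FPLC libraries A to C were alike in this share and D was lower, yet all 4 were above pool 12. tRNA-Gly-TCC was also lower (−3.50 ± 0.81, adjusted p = 0.000707), with overlap of pool 12 A. tRNA-Thr-AGT was at 304, 453, 57.2 and 60.7 CPM against 2.05, 3.30, 1.13 and 19 (4.26 ± 0.90, adjusted p = 0.000169), and its adjusted p was 0.146 without pool 12 B and 0.0774 with the 28S entry removed before scaling. tRNA-Leu-CAG, at 281, 470, 73.1 and 20.6 CPM against 3.47, 12.0, 6.17 and 12.2, had 3.28 ± 0.82 (adjusted p = 0.00233).

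The most abundant tRNAs differed less. tRNA-Lys-TTT was at 1498, 379, 505 and 769 CPM in pool 12 against 33.8 to 131.7 CPM in FPLC libraries A to C and 1847 in D, where FPLC library D made the overlap (0.48 ± 1.29, adjusted p = 1). tRNA-Asp-GTC was at 1436, 67.4, 284 and 338 against 148, 528, 479 and 532 (−0.76 ± 0.66, adjusted p = 0.624). tRNA-Lys-CTT was higher in every pool 12 library, at 1189, 653, 337 and 330 against 16.6, 72.5, 64.9 and 202 CPM, with 2.06 ± 0.72 and an adjusted p of 0.0835 in level and 1.98 ± 0.50 with 0.0026 within the class. Each tRNA entry sums over many near-identical loci.

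Mitochondrial tRNAs, which serve translation inside mitochondria, were scarce in both groups and rarer in pool 12, with 0 higher and 4 lower of 21. chrM.tRNA10-TC, for cysteine, had 0 counts in pool 12 and 34.7, 58.2, 20.4 and 12.2 CPM in the FPLC supermere, at least 62.9-fold higher there against 3 counts over the group. chrM.tRNA18-TS2, for serine, likewise had 0 counts in pool 12 and 2.16, 14.4, 14.3 and 2.71 CPM, at least 16.8-fold higher. chrM.tRNA20-TE, for glutamate, was at 0.976, 0, 1.12 and 3.53 CPM against 23.3, 33.2, 38.3 and 8.79 (−5.72 ± 0.97, adjusted p = 4.47e-07). All of the class came to 6.18 to 12.7 CPM in pool 12 and 43.3 to 118 CPM in the FPLC supermere.

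lncRNA calls were few (16 higher and 3 lower of 4756) and included MALAT1 and snoRNA-host transcripts. In the list of NORAD, MALAT1 and NEAT1 only MALAT1 passed, 1 of 3 tested. MALAT1, a nuclear-retained RNA of cancer cells, was at 266, 37.8, 206.1 and 116 CPM in pool 12 and 1.62, 3.47, 4.601 and 11.5 in the FPLC supermere (4.05 ± 0.92, adjusted p = 0.000513). Of the snoRNA host list 4 of 17 were higher and 0 lower: among them SNHG20 at 5.89 ± 1.04, SNHG1 at 4.53 ± 1.00 and GAS5 at 3.57 ± 0.88 (adjusted p = 1.49e-06, 0.000301 and 0.00173). GAS5 was at 46.9, 132, 67.4 and 62.0 CPM against 0.154, 5.66, 4.88 and 0. Small RNA reads counted to a host gene can come from the snoRNAs inside it, and the 2 cannot be told apart here. AGA-DT was at 130, 260, 44.9 and 38.3 CPM against 0.154, 0.913, 0.184 and 1.35 (6.52 ± 1.12, adjusted p = 5.43e-07), and made up 31.7% of lncRNA counts in pool 12 B and 1.94% to 5.33% in the other 3.

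ERV entries, remnants of endogenous retroviruses, did not separate the groups. MSTA was at 17.9, 3.94, 21.5 and 25.4 CPM against 2.96, 16.2, 10.8 and 26.4, and THE1B at 16.8, 0.821, 11.2 and 21.1 CPM against 1.16, 10.99, 8.31 and 14, with overlap and adjusted p of 0.975 and 1. The MLT1, MST and THE1 list took 35.5% ± 4.4 of ERV counts in pool 12 and 35.3% ± 2.9 in the FPLC supermere, and 0 of its 53 tested members passed in either direction.

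The line of origin was checked with miRNA markers. All 9 colorectal epithelial markers were in the table, 8 had counts in each group and miR-31-5p was at 0 in both, and their sum was 497 to 1969 CPM in pool 12 and 56.0 to 511 CPM in the FPLC supermere. Blood cell markers summed to 2.81 to 12.7 CPM and 0.0772 to 5.41 CPM, endothelial markers to at most 2.93 and 1.35 CPM, mesenchymal markers to at most 0.976 and 2.03 CPM and muscle markers to at most 27.3 and 5.41 CPM. The liver marker miR-122-5p was at 0 in pool 12 and at most 0.365 CPM in the FPLC supermere. In the gradient material and in supermeres alike, fewer particles of a kind and less RNA per particle cannot be told apart.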

How the data were processed

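Small RNA of 38 libraries was sequenced with a NEXTFlex kit. The deposited table holds the authors' expected counts per feature, whose totals differ widely between libraries, as unscaled counts do (6.71% of values are not whole, tolerance 1e-06). Per the submitters' processing notes, the tools were cutadapt 4.5, FastQC 0.12.1 and Bowtie 1.3.1 with GRCh38.p13. The counting tool and annotation are not given in the sources used here.

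Counts were rounded. The quasi-likelihood test of edgeR 4.0.16 (R 4.3.3, robust, two-sided) was run on 11 group means in 38 libraries, which leaves 27 residual degrees of freedom. Scaling was by TMM, and filterByExpr (minimum count 10) kept 7009 of 22549 features. The SE is the log2 fold change over the root of F. Shares within a class used the log class total as offset in 37 libraries (26 residual degrees of freedom), leaving out the near-empty 3D UC supermere A with 46 counts. Class shares were tested by exact permutation. The scripts were tested on simulated data that scatter less than these data and change only entries small within their class. Such a run does not give error rates for these data. Within-group correlations were 0.865 to 0.969, and 0 pairs of libraries were identical. A fold against 0 counts sets 3 counts over the group. Bounds and intervals count each read as a molecule, though copies made by PCR cannot be recognised, so they are limited to counting error.

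Entries were named by a rule. It takes the 6 largest changes up and 6 down that passed, 1 per family, with 50 CPM or more on average in the higher group and no overlap. It adds the 3 entries of highest mean CPM of each class and list, and the 2 largest changes up and 2 down per class by share within class under the same limits. Of 130 entries so named 74 are described and 56 are not, most because they repeat a family, and 1 item is not reported here. The members, lists and rules were chosen with earlier results of these data known. Alternatives were library totals, RLE factors, DESeq2 1.42.0, other filters, removal of 28S, the 8 libraries alone, a replicate block and leaving out each library.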

Additional observations from a re-analysis of the deposited data

Results flagged for a closer look

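In each group of 4 libraries, the gap from the highest or lowest library to its nearest neighbour was divided by the range and set against Dixon's 95% critical value. Of 134 groups tested 16 were above it, 11 in the FPLC supermere (9 of them in library D) and 5 in pool 12. Chance gives about 1 in 20 for normally distributed values. The CPM and shares were used without a log and need not be so distributed, so that rate is no firm baseline here. The tests share libraries and are not independent.

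FPLC supermere D stood apart in the miRNA share of all counts (22.8%, others 0.90% to 3.89%), the snRNA share (39.3%, others 0.162% to 4.01%) and the miRNA share of counts other than 28S (24.7%, others 9.59% to 10.9%). It was also far above the others in miR-1246 (153464 CPM), miR-130b-3p (3415 CPM), the 5.8S entry ENSG00000277739 (294 CPM), RNU12 (352024 CPM), RNU5B-1 (337 CPM) and tRNA-Lys-TTT (1847 CPM). FPLC supermere A was low in the Y RNA share (8.14%, others 26.6% to 29.4%) and in tRNA-Asp-GTC (148 CPM, others 479 to 532).

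In pool 12, library A was high in nuclear tRNA (1.08% of all counts, others 0.246% to 0.378%), in snRNA without 28S (16.6%, others 11.1% to 11.6%) and in VTRNA1-3 (2198 CPM, others 95.3 to 385). Library B was low in ERV (0.0100%, others 0.0621% to 0.0636%) and high in SNORD14A (1201 CPM, others 87.8 to 224).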

How the results depend on the processing

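Calls are given as a percent of the 7009 features of the fit. The 4.52% became 4.28% with library totals, 2.94% in a fit of the 8 libraries alone, which tests 383 features, 3.00% with DESeq2 on them and 33.6% (2355 calls, 2339 higher) with RLE factors. RLE factors rest on 11 features counted in all 38 libraries, RNY1 and RNY4 among them, and moved the median log2 fold change by 4.74. Without the near-empty library they rest on 253 features, with a shift of 0.49 and 4.88% called. The 6.26% called by share within class became 3.15% in the 8 libraries alone. Leaving out each library gave 3.77% to 4.11%, and 5.15% to 5.91% by share within class. Class shares gave 0 calls in each setting run, but these exact permutation tests cannot go below p = 0.0286 before adjustment, and the sign-flip test over letters cannot pass at all, so this says nothing about stability.

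With RLE factors the log2 fold change turned to miR-92a-3p 0.57, miR-320b 1.24, miR-29a-3p 1.98, miR-29b-3p 1.35, miR-29c-3p 1.35, miR-10a-5p 2.44, miR-21-5p 4.74, miR-25-3p 1.27, let-7a-5p 4.48, let-7g-5p 2.79, RN7SL1 0.47, RN7SL2 2.19, 28S rRNA 3.72, RNU4-2 3.90, SNORD33 4.84, ENSG00000273885 0.91, tRNA-Asp-GTC 4.28, tRNA-Gly-TCC 1.59, MSTA 4.64 and THE1B 4.76. With the largest entry of each class out of the class total, the share within class turned to miR-10a-5p 0.11, miR-21-5p 2.31, miR-192-5p 4.79, let-7a-5p 2.23, let-7g-5p 0.47 and RNA5S1 −2.44, since miR-1246 and 28S left the totals.

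Of 53 described entries that passed in level, 23 lost the call or turned direction in at least 1 alternative, 21 of them with RLE factors. By share within class 13 of 48 did so. The letters A to D are shared between the groups only as letters: libraries of the same letter deviated with r of 0.0697, −0.0522, 0.176 and 0.149 over 546 features, and not every library was closest to its own letter. With a replicate block 4.38% passed (307 features), 3.14% in the 8 libraries alone, and 6.13% by share within class. Depth limits entries with few counts, given above as bounds or counting intervals.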
